A study of Homo sapiens with 24 samples.

Results

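The 42 genes described here are antiviral interferon-stimulated genes, chosen by name from a list of effectors and regulators that cells raise when they sense an interferon. All 42 were found by symbol among the 39321 genes of the deposited count table. The list was set by name and not by a rule on measured values, although earlier results of these data were known. Interferons signal through receptor-bound JAK kinases. Type I and type III interferons lead to a complex with STAT2 and IRF9 that binds the interferon-stimulated response element (ISRE), while IFNγ, the type II interferon made by activated T and NK cells, acts through the gamma-activated site (GAS) and raises IRF1, which can itself bind ISRE-like sequence. The products act on the entry, replication, assembly and release of viruses, and many are also raised in tumor cells.

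RNA of 2 established clear cell renal cell carcinoma (ccRCC) lines, labelled A-498 and 786-0, was sequenced in 24 libraries, 12 per line. Each line had 4 groups of 3 libraries: control scrambled siRNA (Cnsi), Cnsi IFNγ, a pool of siRNAs against PD-L1 (PD-L1si), and PD-L1si IFNγ. All cells had received a lipid-carried siRNA at 20 nM for 24 hours, after which the IFNγ groups were given the cytokine at 50 ng/mL for another 24 hours, so that no group was left untransfected. The labels call the PD-L1si groups knockout, whereas the protocol describes transient silencing, and no text says whether the 3 libraries of a group came from separate cultures. The p-values therefore measure the spread between these libraries, which may be technical. In bulk RNA of this kind, fewer expressing cells and less RNA per cell cannot be told apart.

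The cell line names of the sample labels may be exchanged against those of the published account, which was not settled here. The names below are therefore those of the sample labels only, written A-498-labelled and 786-0-labelled. The study's methods put each line on its own sequencing instrument, so that line and instrument cannot be told apart, and levels were not tested between lines. Library totals ran from 19256316 to 30350461 counts. The 8 markers of kidney epithelium summed to 90332 to 186025 counts per library, although PAX2 was listed at 0 in the 786-0-labelled libraries and CA9 had only 15 to 63 counts in the A-498-labelled ones. Under IFNγ the PD-L1si change in the A-498-labelled libraries was -0.77 for PAX8 and 1.37 for CDH6 on the log2 scale, and with IFNγ CDH6 changed by -3.57 in the Cnsi cells. The 4 leukocyte markers with values (CD3E was not analysed here) summed to 1 to 9 counts in the A-498-labelled libraries and to 26 to 52 in the 786-0-labelled ones, most of them from CD14 and NKG7, with PTPRC at 3 or fewer. The 3 endothelial markers summed to at most 1 count in the A-498-labelled libraries. They summed to 3 to 35 in the 786-0-labelled ones, nearly all from PECAM1, which was called higher with IFNγ there (log2 2.13), while CDH5 and VWF reached at most 1. The part of these markers in the results was not tested. LUM, a matrix gene of fibroblasts, had 18 to 264 counts in the A-498-labelled libraries and at most 1 in the 786-0-labelled ones.

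All 42 genes had counts in the A-498-labelled libraries and 37 in the 786-0-labelled ones. OAS1, OAS2, HERC6, SAMHD1 and IFI35 were listed at 0 in all 12 libraries labelled 786-0, and these zeros were treated as not measured. The pattern reached beyond the 42 genes: 715 genes with a mean over 1000 counts per A-498-labelled library also stood at 0 in every 786-0-labelled one. Of the 715, 0.559% carried the same Ensembl version number in GENCODE 44, against 68.5% of the 4515 equally abundant genes that had counts in both lines.

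CD274, which encodes PD-L1, was checked first as the target of the siRNA. In the A-498-labelled libraries it had 100, 138 and 144 counts with Cnsi and 23, 24 and 26 with PD-L1si, and under IFNγ 4546, 5134 and 3976 with Cnsi and 617, 540 and 571 with PD-L1si. The same groups of the 786-0-labelled line had 121, 117 and 122, then 42, 37 and 58, then 1554, 1612 and 1670, and finally 853, 894 and 848 counts. The groups did not overlap, and the log2 fold change with PD-L1si under IFNγ was -2.81 ± 0.0547 (SE) in the first line and -0.94 ± 0.0702 in the second. The line difference of that change, 786-0-labelled minus A-498-labelled, was 1.87 ± 0.091, so the target retained a larger share of its transcript in the 786-0-labelled cells.

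Promoters of the genes are shown first, because the ISRE is the sequence element by which this class of genes is usually recognised. RefSeq start sites on GRCh38.p14 gave a promoter of 250 bases before to 50 after the start for 35 of the 42 genes. The ISRE core was searched on both strands as GAAA, 2 bases of any kind and GAAA again, and was found in 22 of the 35 (62.9%), against 3.57% of all 35116 promoters of the same length. A longer form, with a C after the second GAAA, was in 54.3% of the member promoters and in 0.79% of all. The GAS letters TTCNNNGAA were in 9 of the 35 (25.7%) and in 7.66% of all. The ISRE and GAS letters overlapped in IFITM1, EPSTI1, IFI27 and BST2. A match is a description of letters and not a measured binding site. The following stretches of 100 bases run 5′ to 3′ on the strand of the gene, with every ISRE core that lies wholly inside the stretch in capitals (a core on the other strand appears as its reverse complement). ISG15 and IFIT1 stand for genes with 2 cores close together, IFI6 for 3 cores in one promoter, IFITM1 and RTP4 for the genes with the largest IFNγ change in each line, IFITM3 for a close relative of IFITM1 with a smaller change, and LGALS3BP for the smallest change that was called in both lines. SLFN11, with no core, is the gene that did not move with IFNγ in the A-498-labelled libraries. It has GAS letters at -182 to -174 bases from the start, outside the stretch shown. CMPK2, not shown, also had no core and changed by 6.81 on the log2 scale there.
ISG15: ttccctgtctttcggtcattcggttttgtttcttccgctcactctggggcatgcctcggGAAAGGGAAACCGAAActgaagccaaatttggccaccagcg
IFIT1: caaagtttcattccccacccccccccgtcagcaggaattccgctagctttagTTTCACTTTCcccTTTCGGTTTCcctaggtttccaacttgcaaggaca
IFI6: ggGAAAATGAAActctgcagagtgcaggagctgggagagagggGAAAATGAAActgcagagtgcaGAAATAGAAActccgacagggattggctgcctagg
IFITM1: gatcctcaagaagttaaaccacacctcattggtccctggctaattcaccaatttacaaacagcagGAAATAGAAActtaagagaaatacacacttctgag
IFITM3: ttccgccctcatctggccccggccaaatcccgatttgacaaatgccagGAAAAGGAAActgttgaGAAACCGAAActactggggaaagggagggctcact
RTP4: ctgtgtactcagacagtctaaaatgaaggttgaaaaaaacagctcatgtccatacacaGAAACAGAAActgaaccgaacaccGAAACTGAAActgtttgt
LGALS3BP: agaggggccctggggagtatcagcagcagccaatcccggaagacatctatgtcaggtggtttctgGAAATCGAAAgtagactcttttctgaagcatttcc
SLFN11: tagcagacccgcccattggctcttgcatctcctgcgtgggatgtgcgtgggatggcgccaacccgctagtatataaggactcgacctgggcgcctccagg

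These stretches lie at chr1:1013325-1013424 (ISG15, plus strand), chr10:89392455-89392554 (IFIT1, plus), chr1:27672251-27672350 (IFI6, minus), chr11:313935-314034 (IFITM1, plus), chr11:320861-320960 (IFITM3, minus), chr3:187368285-187368384 (RTP4, plus), chr17:78979947-78980046 (LGALS3BP, minus) and chr17:35373622-35373721 (SLFN11, minus), each upstream of the RefSeq start site used. In the GENCODE 44 models on the same build no exon of the gene reached into the stretch for ISG15, IFI6, IFITM3 and RTP4, while at least 1 alternative transcript had an exon there for IFIT1, IFITM1, LGALS3BP and SLFN11. The stretches of ISG15, IFITM1 and IFITM3 lay inside the span of their gene from other starts. In total 38 ISRE cores were found in the 22 promoters, and 30 of them lay within 150 bases before the start site. Of the 22 genes, 13 had more than 1 core and 3 (IFIT5, HERC5 and IFI6) had 3. HERC5, with its 3 cores, changed by 1.6 on the log2 scale with IFNγ in the A-498-labelled libraries, against 7.52 for IFITM1 with 2. Over the 22 genes with a core the median log2 change with IFNγ in the A-498-labelled Cnsi cells was 3.53, and over the 13 with a promoter but no core it was 3.46. In the 786-0-labelled cells the corresponding medians were 2.49 and 2.55. The genes with and without these letters therefore had similar medians in either line, and no test was made between them.

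**Figure D1:**
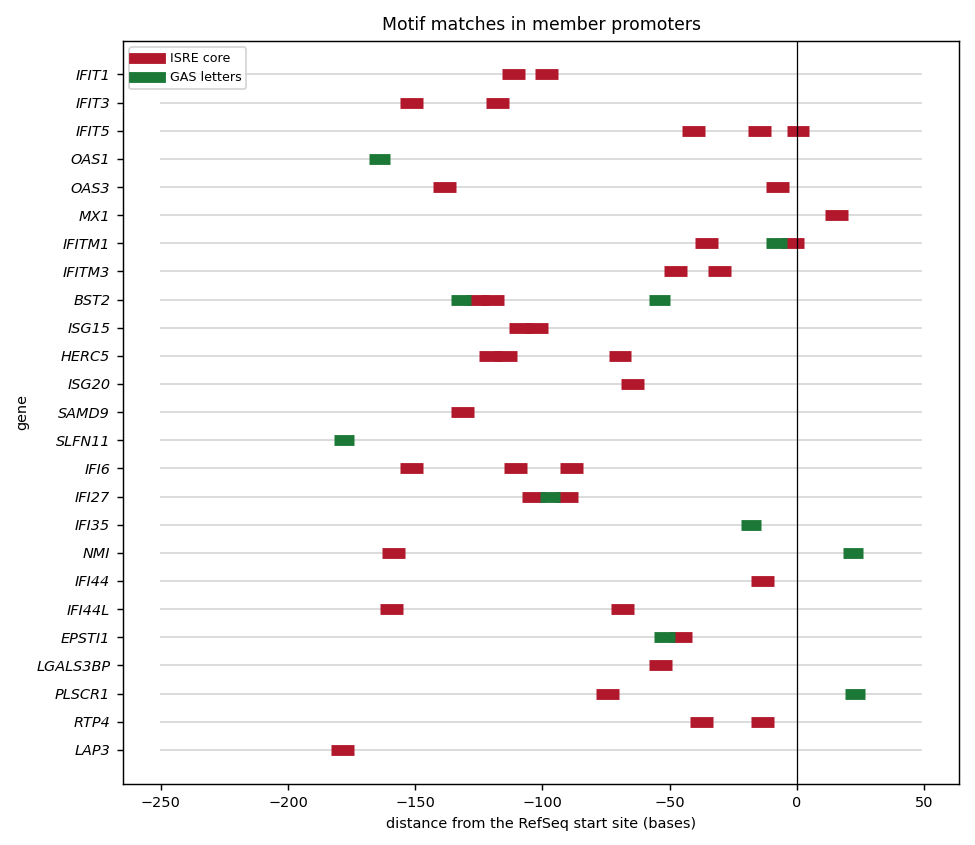
Positions of the ISRE core (red) and the GAS letters (green) from 250 bases before to 50 after the RefSeq start site (x axis, bases; 0 is the start) in the member promoters that held either. Most cores lay upstream of the start, 30 of 38 within 150 bases before it.

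IFNγ raised nearly the whole set in both lines. With Cnsi, 40 of 42 genes were higher with IFNγ in the A-498-labelled libraries and none was lower, where 18.2% of the 20916 genes tested were called higher and 18.5% lower (edgeR's quasi-likelihood test, Benjamini-Hochberg adjusted p under 0.05 and a log2 fold change over 0.5, the threshold used throughout). The median log2 change of the 42 was 3.53, an 11.5-fold rise, against -0.03 over all genes tested. All 37 genes measured in the 786-0-labelled libraries were higher, with a median of 2.50 (5.68-fold), where 11.1% of 21209 genes were called higher and 7.39% lower. Together the 42 genes took 0.22 to 0.227% of the counts of an A-498-labelled Cnsi library and 1.34 to 1.39% after IFNγ. The corresponding shares in the 786-0-labelled libraries were 0.295 to 0.304% and 0.981 to 1.09%. The exceptions were IFITM2 and SLFN11 in the A-498-labelled libraries. Levels and changes are given by role in the paragraphs that follow, as raw counts per library in the order of the replicate numbers and as log2 fold changes ± SE with n = 3 per group.

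**Figure D2:**
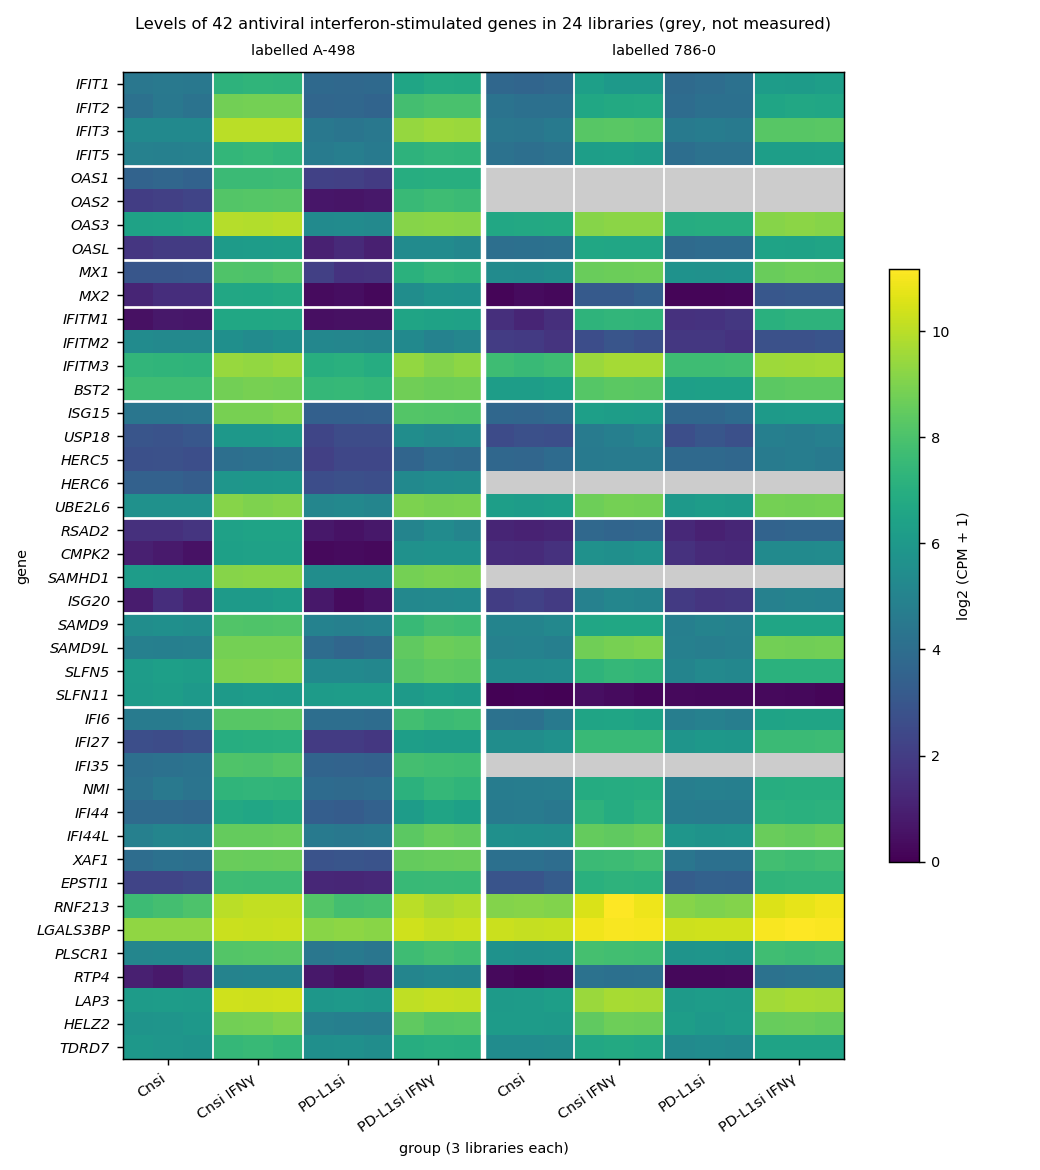
Level of each of the 42 genes (rows, grouped by role) in each of the 24 libraries (columns, 3 per group), as log2 (CPM + 1), where CPM is the count scaled to library size with TMM factors. IFNγ columns are brighter in both lines, SLFN11 is dark throughout the 786-0-labelled libraries, and the 5 genes not measured there are grey.

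**Figure D3:**
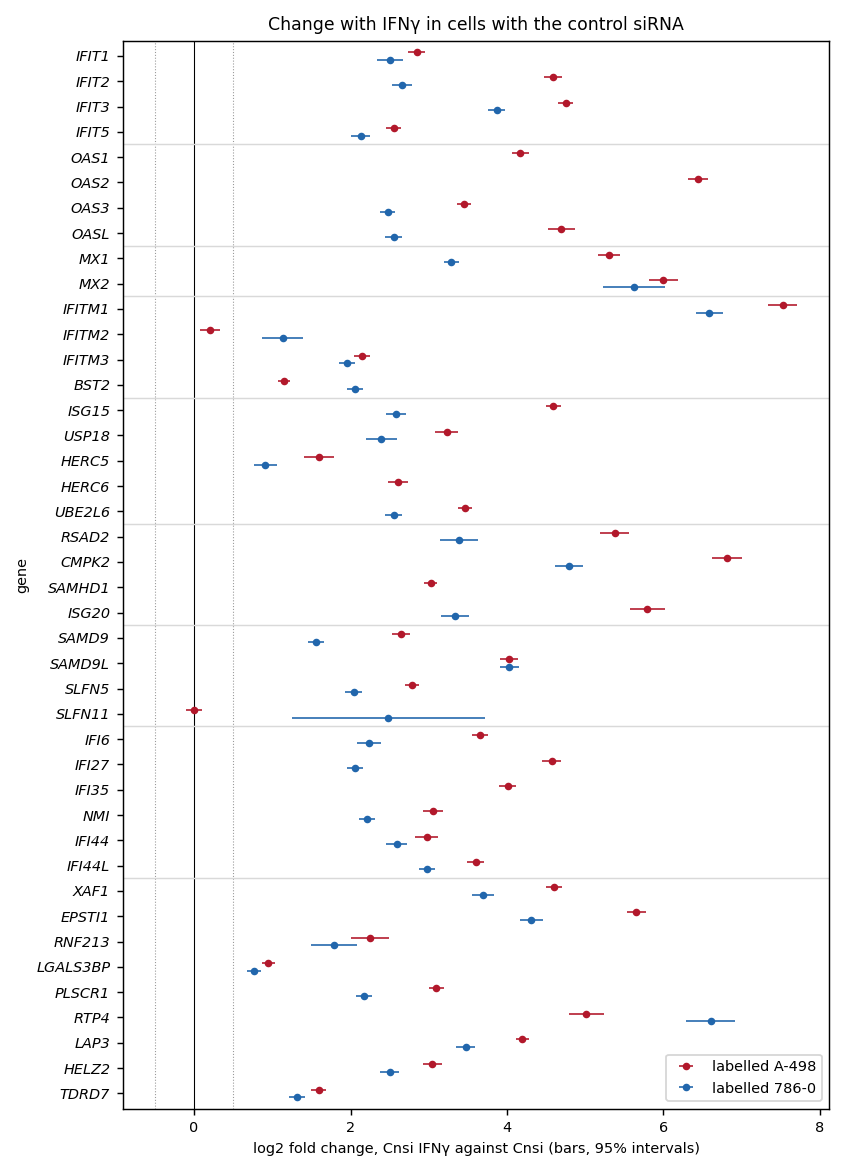
Log2 fold change with IFNγ in Cnsi cells for each gene (red, labelled A-498; blue, labelled 786-0; bars, 95% intervals; dotted lines, a log2 change of 0.5). The changes run from 0.00 (SLFN11) to 7.52 (IFITM1) in the A-498-labelled libraries and from 0.77 (LGALS3BP) to 6.61 (RTP4) in the 786-0-labelled ones.

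The IFIT genes encode RNA-binding proteins with tetratricopeptide repeats, which hold viral RNA with foreign ends away from translation. All 4 rose in both lines. IFIT3, the partner that stabilises IFIT1, changed most, from 947, 972 and 947 counts in the A-498-labelled Cnsi libraries to 24466, 26286 and 21517 with IFNγ, and from 644, 555 and 660 to 8518, 8528 and 7641 in the 786-0-labelled ones. Its groups were far apart in both lines, and the log2 changes were 4.75 ± 0.0488 and 3.87 ± 0.0566. IFIT5, which binds RNA with a 5′ phosphate, changed least, from 736, 718 and 721 to 4002, 4546 and 3390 counts in the A-498-labelled cells. In the 786-0-labelled cells IFIT5 went from 552, 439 and 517 to 2082, 2082 and 1823 counts, with log2 changes of 2.55 ± 0.0509 and 2.13 ± 0.0612 in turn. IFIT1, which binds caps without 2′-O methylation, changed by 2.85 and 2.50, and IFIT2 by 4.59 and 2.66 on the log2 scale.

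The 2′-5′-oligoadenylate synthetases make short oligoadenylate messengers when double-stranded RNA is present. OAS2 showed the largest change of the family in the A-498-labelled cells, from 77, 83 and 97 to 6944, 7604 and 6311 counts (log2 6.44 ± 0.0654), and OAS1 went from 265, 296 and 262 to 4613, 5020 and 4192 (4.17 ± 0.0554). Neither was measured in the 786-0-labelled libraries. OAS3, the family member that prefers long RNA, was the most abundant by count and changed least in both lines. It rose from 2148, 2184 and 2352 to 23381, 23923 and 21050 counts in the A-498-labelled cells and from 3185, 2928 and 3179 to 15830, 16134 and 14968 in the 786-0-labelled ones, with log2 changes of 3.46 ± 0.0462 and 2.48 ± 0.0477. OASL, which lacks the synthetase activity and strengthens RIG-I signalling, rose from 61, 71 and 72 to 1639, 1805 and 1507 counts in the A-498-labelled cells (4.70 ± 0.0853). With Cnsi and IFNγ it had 2741, 2581 and 2434 counts in the 786-0-labelled cells, against 457 to 502 in each Cnsi library without IFNγ (2.55 ± 0.0533). The raw counts of OASL were thus higher there before and after IFNγ, a difference of levels that was not tested between lines, although its change was smaller.

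The MX genes encode dynamin-like GTPases that trap viral nucleocapsids, MX1 in the cytoplasm and MX2 at the nuclear pore. MX1 rose from 173, 174 and 178 to 6530, 6770 and 6002 counts in the A-498-labelled cells and from 1259, 1120 and 1274 to 11025, 10989 and 10401 in the 786-0-labelled ones (log2 5.30 ± 0.0712 and 3.29 ± 0.0503). MX2 went from 31, 45 and 45 to 2427, 2565 and 2259 in the first and from 3, 7 and 5 to 223, 218 and 245 in the second (log2 6.00 ± 0.093 and 5.62 ± 0.203). Both genes were at very different depths in the 786-0-labelled libraries, with MX2 near the limit of detection without IFNγ, and its fold change there rests on 3 to 7 counts per untreated library.

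The membrane proteins that restrict entry and release were the least uniform group. IFITM1, IFITM2 and IFITM3 sit next to each other on chromosome 11 and block the fusion of viral and cell membranes, and BST2 (tetherin) holds budding particles at the surface. IFITM1 was at 10, 16 and 15 counts in the A-498-labelled Cnsi libraries and at 2390, 2561 and 2162 with IFNγ, the largest change of all 42 genes there (log2 7.52 ± 0.0962). IFITM1 in the 786-0-labelled libraries went from 57, 35 and 53 to 4232, 4433 and 4025 counts (6.59 ± 0.0886). IFITM2 had 1008, 936 and 932 counts with Cnsi and 1097, 1046 and 959 with IFNγ in the A-498-labelled libraries, a log2 change of 0.21 ± 0.0651 that stayed under the fold threshold (edgeR adjusted p = 0.00594). The 786-0-labelled libraries showed a rise of IFITM2 from 93, 77 and 65 to 145, 182 and 141 counts (1.13 ± 0.136). IFITM3 changed by 2.15 and 1.95 and BST2 by 1.15 and 2.06 on the log2 scale. The 3 IFITM genes are related in sequence, and how the authors' counting split reads among them was not tested.

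ISG15 is a ubiquitin-like protein, UBE2L6 its conjugating enzyme, HERC5 its ligase, HERC6 a relative of that ligase, and USP18 the protease that removes it and also dampens the type I receptor. ISG15 showed the largest change of the group, in the A-498-labelled cells from 19.9, 19.9 and 20.3 CPM with Cnsi to 474, 466 and 511 CPM with IFNγ, and in raw counts from 382, 329 and 386 to 2165, 1983 and 1824 in the 786-0-labelled ones (log2 4.59 ± 0.0504 and 2.58 ± 0.0635). HERC5 showed the smallest. Its counts went from 141, 144 and 136 to 374, 439 and 380 in the A-498-labelled libraries and from 382, 332 and 405 to 632, 658 and 616 in the 786-0-labelled ones (log2 1.6 ± 0.0962 and 0.91 ± 0.0747). HERC6, measured only in the A-498-labelled libraries, rose from 251, 256 and 218 to 1379, 1504 and 1254 (2.61 ± 0.0648). UBE2L6 changed by 3.46 and 2.55 and USP18 by 3.23 and 2.40; all of these genes passed the threshold in each line where they were measured.

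Genes that act on nucleotides and nucleic acids rose by a median log2 change of 5.59 in the A-498-labelled libraries. RSAD2 (viperin) turns CTP into a chain terminator, and its neighbour CMPK2 phosphorylates the pyrimidine nucleotides it needs. CMPK2 rose from 25, 19 and 11 to 1920, 2159 and 1741 counts in the A-498-labelled libraries and from 53, 44 and 59 to 1381, 1263 and 1292 in the 786-0-labelled ones (log2 6.81 ± 0.0989 and 4.79 ± 0.0932). RSAD2 changed by 5.38 and 3.38 on the log2 scale. SAMHD1, which depletes the deoxynucleotides that reverse transcription uses, was well counted without IFNγ, with 1787, 1730 and 1746 counts in the A-498-labelled Cnsi libraries and 13366, 14805 and 11874 after it (3.02 ± 0.0412). ISG20, an exonuclease for single-stranded RNA, went from 20, 45 and 28 to 1606, 1717 and 1518 counts in the A-498-labelled cells and from 95, 96 and 83 to 799, 914 and 800 in the 786-0-labelled ones (log2 5.80 ± 0.112 and 3.33 ± 0.0928). RSAD2, CMPK2 and ISG20 had low counts in every Cnsi library, whereas SAMHD1 did not.

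SAMD9 and SAMD9L restrict poxviruses, and the Schlafen proteins act on tRNA and replication. SAMD9L had nearly the same change in both lines, from 696, 692 and 714 to 10828, 11649 and 9505 counts in the A-498-labelled libraries and from 895, 827 and 799 to 11889, 12794 and 12643 in the 786-0-labelled ones (log2 4.02 ± 0.0567 and 4.03 ± 0.0607). SAMD9 changed less, from 1100, 1161 and 1084 to 6582, 7095 and 5884 and from 1007, 899 and 1035 to 2708, 2668 and 2499 counts in turn (log2 2.65 ± 0.0596 and 1.56 ± 0.0549), and SLFN5 by 2.79 and 2.04. SLFN11, which blocks stressed replication forks and retroviral protein synthesis, was the exception. In the A-498-labelled libraries it had 1746, 1829 and 1589 counts with Cnsi and 1580, 1837 and 1415 with IFNγ, with groups that overlapped (log2 0.00 ± 0.0524, edgeR adjusted p = 0.994). In the 786-0-labelled libraries it was nearly uncounted, with 1, 2 and 1 counts with Cnsi and 11, 7 and 4 with IFNγ. The log2 change of 2.48 ± 0.63 there was called, but it rests on 1 to 11 counts per library.

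Among the IFI genes, IFI27 and IFI6 encode small hydrophobic proteins of mitochondria and the endoplasmic reticulum, and IFI35 binds NMI. IFI27 changed most in the A-498-labelled libraries, from 135, 125 and 139 to 2929, 3225 and 2708 counts, and least in the 786-0-labelled ones, from 1373, 1218 and 1429 to 5199, 5131 and 4848 (log2 4.57 ± 0.0624 and 2.06 ± 0.0528). IFI44 was at the other end in the A-498-labelled libraries, with 334, 337 and 322 counts going to 2536, 2484 and 2257, and went from 726, 678 and 610 to 4137, 3263 and 3608 in the 786-0-labelled ones (log2 2.97 ± 0.0753 and 2.59 ± 0.071). IFI44L led in the 786-0-labelled libraries, from 1468, 1310 and 1319 to 10272, 9441 and 9554 counts, and rose from 697, 831 and 793 to 8857, 9449 and 7960 in the A-498-labelled ones (log2 2.98 ± 0.051 and 3.60 ± 0.0567). The order of these 3 genes was thus not the same in the 2 lines. IFI35, measured in the A-498-labelled libraries only, rose from 398, 430 and 456 to 6545, 6786 and 5940 (4.01 ± 0.0545). IFI6 changed by 3.66 and 2.24 and NMI by 3.05 and 2.21.

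The remaining 9 genes cover several roles. EPSTI1, an epithelial-stromal interaction gene, had the largest change of these in the A-498-labelled libraries, from 97, 98 and 108 to 4890, 5237 and 4172 counts, and went from 205, 178 and 252 to 3786, 4005 and 3687 in the 786-0-labelled ones (log2 5.66 ± 0.0607 and 4.31 ± 0.0781). RTP4, a receptor transporter protein that binds viral replication complexes, led in the 786-0-labelled libraries, from 7, 3 and 5 to 486, 447 and 430 counts (6.61 ± 0.16), and rose from 25, 18 and 30 to 746, 810 and 665 in the A-498-labelled ones (5.02 ± 0.112). LGALS3BP, a secreted glycoprotein, was the most abundant by count in the Cnsi libraries without IFNγ and changed least, from 15851, 15791 and 15650 to 29107, 30568 and 25604 and from 38428, 32637 and 35260 to 54584, 57682 and 52245 counts (log2 0.95 ± 0.041 and 0.77 ± 0.0452). All of these rises were wider than the gap between replicates. The log2 changes in the A-498-labelled and then the 786-0-labelled libraries were 4.60 and 3.69 for XAF1, an antagonist of the apoptosis inhibitor XIAP, and 4.20 and 3.47 for LAP3, a leucine aminopeptidase. For PLSCR1, a phospholipid scramblase that blocks viral entry, they were 3.10 and 2.17, and for HELZ2, a helicase, 3.05 and 2.50. RNF213, a very large ubiquitin ligase, changed by 2.25 and 1.79, and TDRD7, a tudor domain protein, by 1.596 and 1.32.

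Levels of different genes were compared per kilobase of exon, as CPM per kb (mean ± SD, n = 3). The length used was that of all annotated exons of a gene, not of the transcript expressed. It was 867 bases for ISG15 and 14562 for MX2. The order of genes below holds for this scale only, and the part of the annotated length in it was not tested. Under IFNγ with Cnsi, ISG15 was the highest of the 42 in the A-498-labelled libraries at 558 ± 27.4, followed by BST2 at 415 ± 9.17, LGALS3BP at 354 ± 7.37 and LAP3 at 341 ± 4.04. The values of LGALS3BP and LAP3 were close, and their order was not tested. The lowest were MX2 at 7.09 ± 0.327 and HERC5 at 3.57 ± 0.275. In the 786-0-labelled libraries LGALS3BP led at 599 ± 26.6, ahead of BST2 at 284 ± 16.2 and IFITM3 at 272 ± 17.4, and SLFN11 was last at 0.0452 ± 0.0199. BST2 and IFITM3 did not differ beyond their spread there. Without IFNγ the highest levels were those of BST2 (187 ± 1.73) and LGALS3BP (183 ± 1.53) in the A-498-labelled libraries and of LGALS3BP (351 ± 9.17) in the 786-0-labelled ones.

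PD-L1 siRNA lowered much of the set in the A-498-labelled libraries that had no IFNγ. There 30 of the 42 genes were lower with PD-L1si than with Cnsi and none was higher, where 5.60% of all genes tested were called lower and 2.87% higher. The median log2 change was -0.69 (0.619-fold), and 40 of the 42 values were negative. In 39 genes all 3 PD-L1si libraries had a lower CPM than all 3 Cnsi libraries, as had 24.0% of all genes tested. Changes were deepest in the MX, OAS and nucleotide groups. MX2 had 31, 45 and 45 counts with Cnsi and 7, 8 and 5 with PD-L1si (log2 -2.66 ± 0.301), and OAS2 had 77, 83 and 97 and 17, 13 and 18 (-2.50 ± 0.173). These groups did not overlap, although the counts of both genes were low. OAS1, better counted, fell from 265, 296 and 262 to 98, 78 and 79 (-1.78 ± 0.0932), and OAS3 from 2148, 2184 and 2352 to 1109, 964 and 1047 (-1.19 ± 0.0485). RSAD2, CMPK2, EPSTI1, MX1, ISG20, XAF1, OASL, SAMD9L, HELZ2 and ISG15 also fell by more than 1 on the log2 scale, from -1.77 for RSAD2 to -1.02 for ISG15.

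The other 16 genes called lower without IFNγ had log2 changes from -0.99 (SLFN5) to -0.50 (HERC5). They included IFIT1 (-0.69), IFIT2 (-0.67), IFIT3 (-0.90), USP18 (-0.53), HERC6 (-0.83), UBE2L6 (-0.52) and SAMHD1 (-0.68). Among the IFI genes IFI27 (-0.95), IFI6 (-0.73), IFI35 (-0.68) and IFI44 (-0.52) were called, as were SAMD9 (-0.59), PLSCR1 (-0.73) and RTP4 (-0.69). HERC5, with 141, 144 and 136 counts against 96, 100 and 120, lay at the threshold and lost its call in 12 of the 21 alternative analyses that kept the threshold. USP18, UBE2L6 and IFI44 lost theirs in 2 and RTP4 in 4 of the 12 fits that left out a library. In the 9 other alternatives that kept the threshold, IFI44 lost its call in 3, UBE2L6 and RTP4 in 1 each and USP18 in 0. None of the 4 membrane restriction genes was called, with values from -0.40 (IFITM1) to -0.19 (IFITM2). SLFN11 had 1746, 1829 and 1589 counts with Cnsi and 1931, 1678 and 2009 with PD-L1si, and its value was 0.03 ± 0.0518. The 4 fibroblast markers summed to 173 to 196 counts in the A-498-labelled Cnsi libraries and 295 to 354 with PD-L1si, most of them from LUM (log2 0.93), and to 40 to 54 and 44 to 81 under IFNγ, with DCN at or near 0. The part of the fibroblast markers in the siRNA values was not tested. The genes not called were IFIT5, IFITM1, IFITM2, IFITM3, BST2, SLFN11, NMI, IFI44L, RNF213, LGALS3BP, LAP3 and TDRD7.

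**Figure D4:**
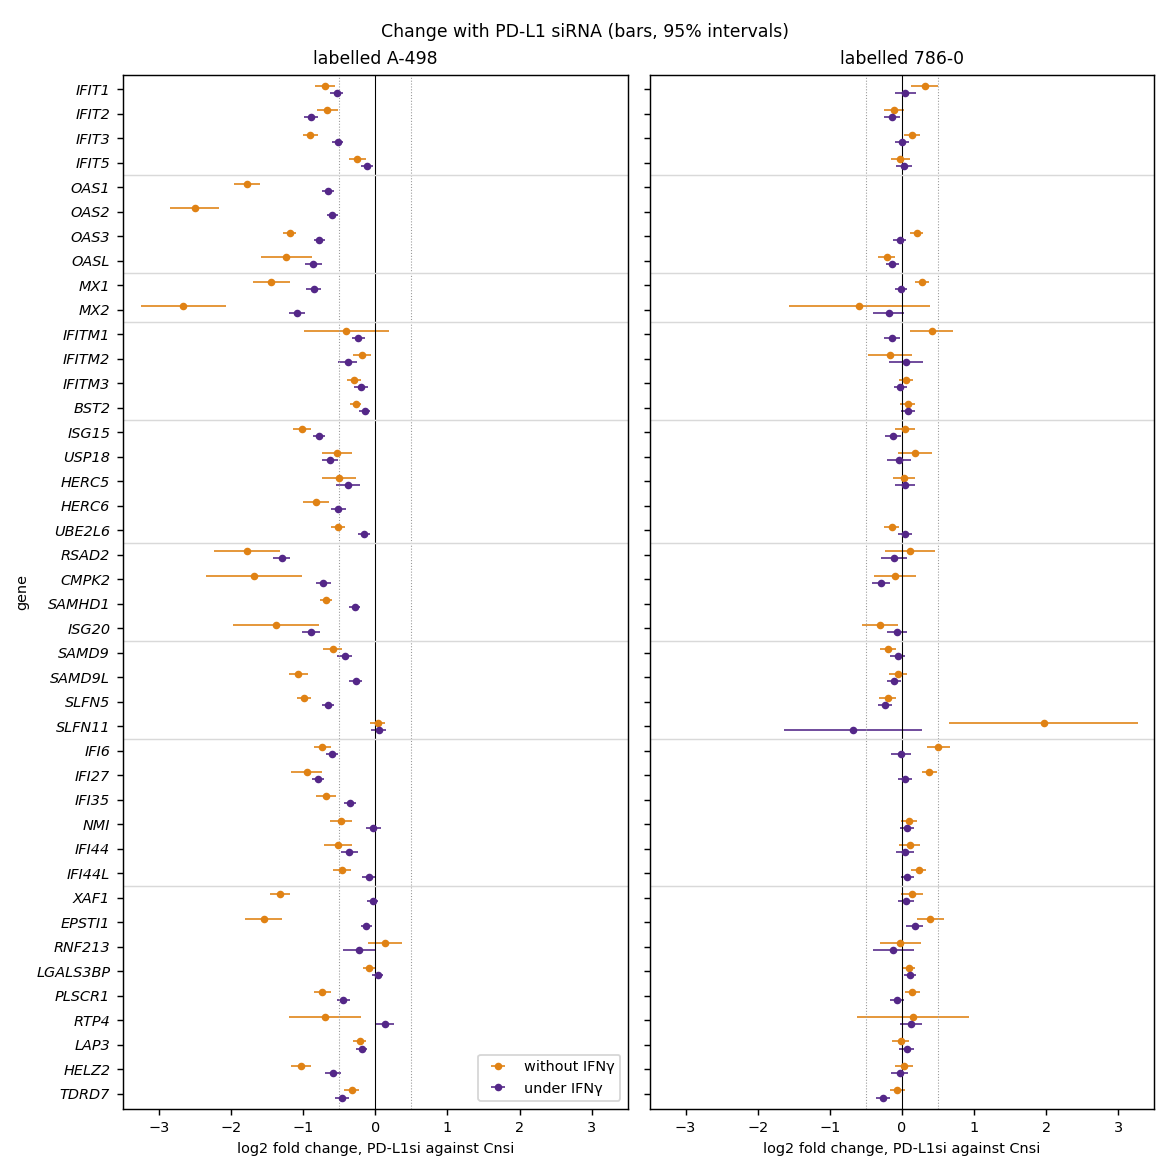
Log2 fold change with PD-L1si against Cnsi for each gene, without IFNγ (orange) and under IFNγ (purple), in the libraries labelled A-498 (left) and 786-0 (right); bars are 95% intervals and dotted lines a log2 change of 0.5. On the left most points lie below 0, further for several genes without IFNγ, and on the right they gather around 0, with wide bars for the low-count genes MX2, SLFN11 and RTP4.

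Under IFNγ the same comparison gave smaller differences in the A-498-labelled libraries. Of the 42 genes 19 were lower with PD-L1si and none was higher, where 5.75% of all genes were called lower and 4.36% higher, and 35 were lower by the adjusted p alone (17.8% of all genes). The median log2 change was -0.43, so that the median gene was at 0.741-fold of its Cnsi IFNγ level, and 39 of the 42 values were negative. In 35 genes every PD-L1si IFNγ library had a lower CPM than every Cnsi IFNγ library, and in 1 gene a higher one, against 21.0% and 20.1% of all genes tested. RSAD2 changed most, with 1976, 2252 and 1809 counts with Cnsi and 729, 762 and 686 with PD-L1si (log2 -1.29 ± 0.06). MX2 had 2427, 2565 and 2259 and 1007, 983 and 1043 (-1.08 ± 0.056), and these were the only 2 genes with a change over 1. The groups of RSAD2 and of MX2 lay well apart.

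By role, all 4 OAS genes were lower, with OAS2 at 6944, 7604 and 6311 counts with Cnsi and 4336, 3876 and 4045 with PD-L1si under IFNγ (log2 -0.59 ± 0.0412), OAS1 at -0.66, OAS3 at -0.78 and OASL at -0.86. MX1 fell from 6530, 6770 and 6002 to 3241, 3090 and 3127 (-0.86 ± 0.0506). In the IFIT family 3 genes were called, namely IFIT2 (-0.89), IFIT1 (-0.54) and IFIT3 (-0.52), and IFIT5 (-0.12) was not. ISG15 had 11299, 12019 and 10614 counts with Cnsi and 6640, 5292 and 5668 with PD-L1si (-0.78 ± 0.0401), USP18 was at -0.63 and HERC6 at -0.51. CMPK2 (-0.72), ISG20 (-0.89), SLFN5 (-0.65), IFI27 (-0.79), IFI6 (-0.60) and HELZ2 (-0.59) complete the 19. IFIT1, IFIT3 and HERC6 lost their call without PD-L1si IFNγ replicate 1, which left 16 of 42. None of the membrane restriction genes passed, with values from -0.38 (IFITM2) to -0.14 (BST2).

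Several genes with a deep difference without IFNγ had almost none under it. XAF1 had 376, 423 and 403 counts with Cnsi and 175, 159 and 177 with PD-L1si, but 9285, 9842 and 8100 and 8327, 7214 and 8032 under IFNγ, and its log2 changes were -1.32 ± 0.0727 and -0.04 ± 0.0395. EPSTI1 had 97, 98 and 108 and 39, 31 and 40 counts without IFNγ and 4890, 5237 and 4172 and 4161, 3618 and 3824 with it (-1.55 ± 0.13 and -0.13 ± 0.0392). The siRNA by IFNγ interaction, which asks whether the log2 IFNγ effect differs between PD-L1si and Cnsi, was positive and called for 8 of the 42 genes and negative for none, where 1.81% of all genes were called positive and 0.645% negative. OAS2 led at 1.91 ± 0.183, followed by MX2 (1.58 ± 0.324), EPSTI1 (1.42 ± 0.137), XAF1 (1.29 ± 0.0831) and OAS1 (1.12 ± 0.105). RTP4 (0.82 ± 0.263), SAMD9L (0.80 ± 0.0839) and MX1 (0.58 ± 0.141) made up the rest. The median over the 42 was 0.32, and RNF213 was lowest at -0.35 ± 0.168. For these 8 genes the IFNγ effect on the log2 scale was larger with PD-L1si, from a lower starting level. That starting level was low in counts for OAS2, MX2, EPSTI1 and RTP4, which limits their interaction values.

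Every gene called lower with PD-L1si under IFNγ in the A-498-labelled libraries was also called lower without it. These included OAS1, OAS2, MX1 and MX2, whose interaction was called as well. IFIT2 was at -0.67 without IFNγ and -0.89 under it, ISG15 at -1.02 and -0.78, USP18 at -0.53 and -0.63, IFI27 at -0.95 and -0.79, and IFI6 at -0.73 and -0.60. None of these 5 had an interaction past the threshold, with values from -0.22 (IFIT2) to 0.24 (ISG15). For RSAD2, whose change under IFNγ was the largest, the interaction was 0.48 ± 0.251. These comparisons share libraries and are not independent of each other.

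With IFNγ in PD-L1si cells the set still rose. In the A-498-labelled libraries 40 of 42 genes were higher with IFNγ, where 17.6% of all genes were called higher and 15.9% lower, with a median log2 change of 3.84 and a range from 0.01 (IFITM2) to 8.35 (OAS2). The members' share of counts was 0.19 to 0.199% with PD-L1si and 1.14% in each PD-L1si IFNγ library. In the 786-0-labelled libraries 36 of 37 genes were higher and none lower (11.0% and 7.45% of all genes), with a median of 2.42. The exception was SLFN11, with 6, 6 and 5 counts before IFNγ and 6, 5 and 3 after it. In the A-498-labelled libraries IFITM2 and SLFN11 were again the genes not called.

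**Figure D5:**
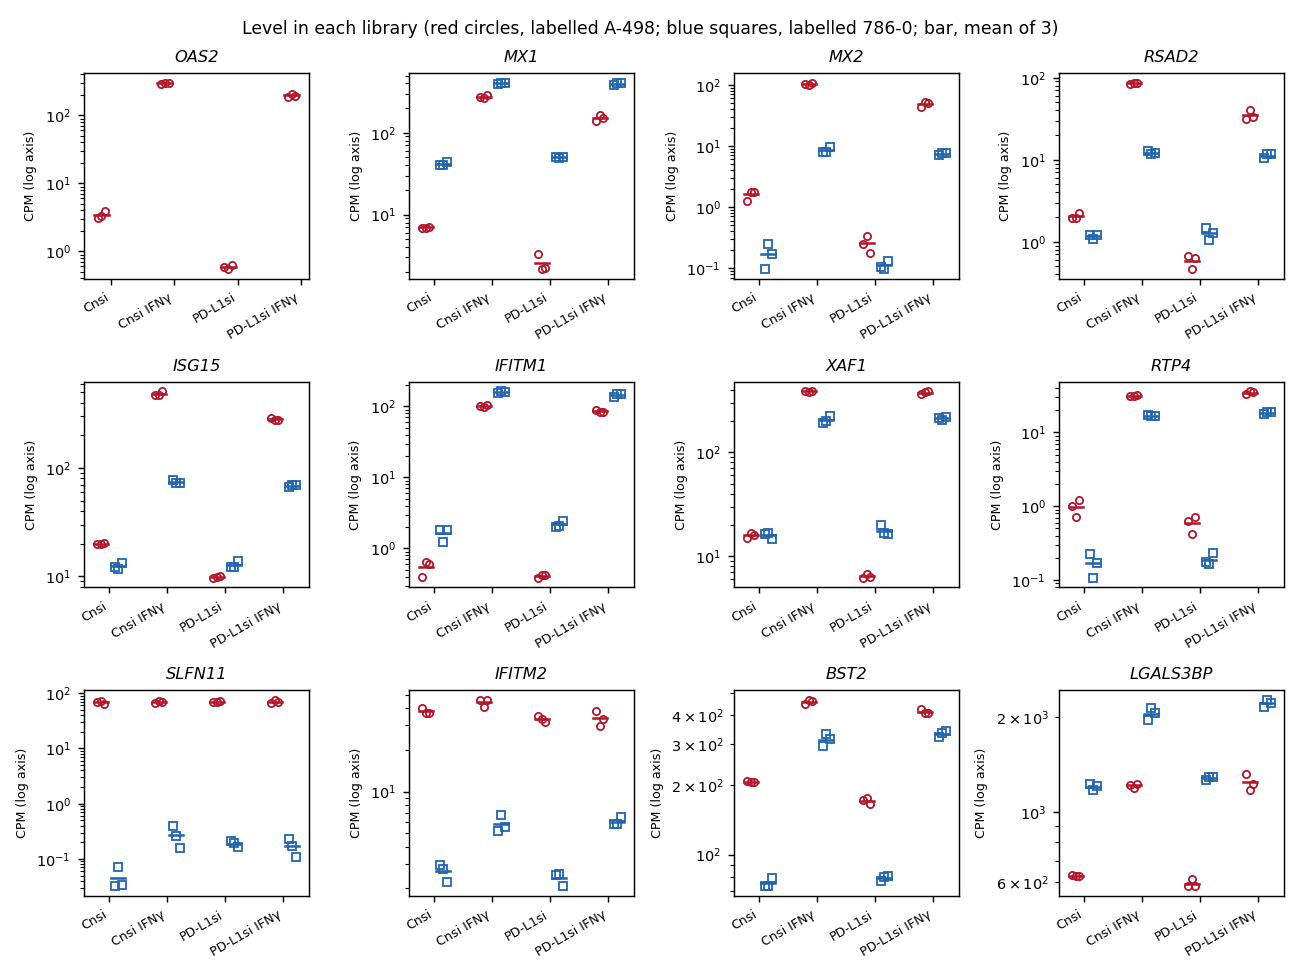
CPM after TMM scaling (log axis) of 12 of the genes in each library of the 4 groups (red circles, labelled A-498; blue squares, labelled 786-0; bar, mean of 3 libraries). The PD-L1si circles of OAS2, MX1, MX2, RSAD2, ISG15 and XAF1 lie below the Cnsi circles, and those of XAF1 meet again under IFNγ. The blue squares of the siRNA groups lie close together for most genes and further apart for the low-count MX2 and SLFN11. OAS2, not measured in the 786-0-labelled libraries, has no squares.

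In the 786-0-labelled libraries few genes of the set differed with PD-L1 siRNA. Under IFNγ none of the 37 genes was called by edgeR in either direction, where 1.74% of all genes were called lower and 1.29% higher, and 3 genes (CMPK2, SLFN5 and TDRD7) were lower by the adjusted p alone (8.06% of all genes). DESeq2 called 0 as well, and at an unadjusted edgeR p under 0.05 there were 8 genes lower and 2 higher, where 14.1% and 12.1% of all genes passed. The median log2 change was -0.02, and apart from SLFN11 (-0.68 ± 0.49), which rests on 3 to 11 counts, the values ran from -0.29 (CMPK2) to 0.18 (EPSTI1). RSAD2 had 355, 313 and 310 counts with Cnsi IFNγ and 276, 337 and 322 with PD-L1si IFNγ, with groups that overlapped (-0.11 ± 0.0901). ISG15 had 2165, 1983 and 1824 and 1725, 2008 and 1924 (-0.12 ± 0.0549), and MX1 had 11025, 10989 and 10401 and 10100, 11908 and 11126 (-0.01 ± 0.0445). Without IFNγ 1 gene, IFI6, was higher with PD-L1si (0.51 ± 0.0808) and none was lower, where 1.19% of all genes were called higher and 1.63% lower. At an unadjusted edgeR p under 0.05 there were 11 genes higher and 5 lower in that comparison (10.7% and 14.0% of all genes), and DESeq2 called 1 higher and 0 lower. IFI6 had 548, 476 and 666 counts with Cnsi and 751, 876 and 814 with PD-L1si, groups that did not overlap, and it lost this call without Cnsi replicate 1 or 2 or PD-L1si replicate 2 (log2 0.43 to 0.47). The median over the 37 was 0.08, and MX2 (-0.59 ± 0.498) and SLFN11 (1.96 ± 0.667) lay at the ends with at most 7 counts per library. The interaction was called for IFI6 alone (-0.52 ± 0.106), where 0.0613% of all genes were called negative and 0.0377% positive, and this call was lost when any of 11 of the 12 libraries was left out.

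The difference between the lines was tested gene by gene for the 37 genes measured in both, as 786-0-labelled minus A-498-labelled. For the IFNγ change in Cnsi cells, 24 genes had a smaller rise in the 786-0-labelled libraries and 4 a larger one, where 13.2% and 15.1% of the 17999 genes tested in both were called in these directions. The median difference was -0.84 on the log2 scale. IFI27 (-2.52 ± 0.0831) and ISG20 (-2.47 ± 0.193) had the largest differences in the first direction, followed by OASL (-2.15), CMPK2 (-2.03), ISG15 (-2.02), MX1 (-2.02) and RSAD2 (-2.00). SLFN11 (2.46 ± 0.585), with its few counts, RTP4 (1.58 ± 0.318), IFITM2 (0.92 ± 0.151) and BST2 (0.90 ± 0.0627) rose more in the 786-0-labelled libraries. The difference for SAMD9L was -0.00 ± 0.0855 with a 95% interval from -0.17 to 0.17. In PD-L1si cells 28 genes had a smaller IFNγ rise in the 786-0-labelled libraries and 2, IFITM2 and BST2, a larger one (background 12.8% and 13.1%).

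For PD-L1si under IFNγ, 14 of the 37 genes had a more negative change in the A-498-labelled libraries and none the reverse, where 2.96% and 2.64% of all genes were called in these directions. These were RSAD2 (1.19 ± 0.105), MX2 (0.91), IFI27 (0.85), MX1 (0.85), ISG20 (0.83), IFIT2 (0.76), OAS3 (0.75), OASL (0.73), ISG15 (0.67), IFI6 (0.60), USP18 (0.60), IFIT1 (0.59), HELZ2 (0.56) and IFIT3 (0.53). The same contrast without IFNγ, added after the values within each line had been seen, was called for 25 of the 37 in that direction and for none in the other (3.23% and 1.25% of all genes), with MX2 (2.08 ± 0.678) and EPSTI1 (1.95 ± 0.167) the largest. MX2 rests on at most 7 counts per library in the 786-0-labelled line here and lost its call in 9 of the 24 fits that left out a library. The interaction, also added afterwards, was more negative in the 786-0-labelled libraries for 9 genes and more positive for none (1.13% and 0.411% of all genes). CD274 itself fell less in the 786-0-labelled cells, as given with the check of the siRNA target, and the part of that difference in these values was not tested.

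The upstream genes of the pathway were counted from 3 lists. Of 14 genes of interferon signalling, 10 of 14 were higher with IFNγ in the A-498-labelled Cnsi cells and 6 of the 9 measured in the 786-0-labelled ones, where 18.2% and 11.1% of all genes were called higher, and none was lower. IRF1 rose by 4.62 and 4.77, STAT2 by 2.48 and 2.37, and IRF7, which amplifies type I interferon, by 3.11 and 1.58 on the log2 scale. With PD-L1si 1 of the 14 was called lower, IRF7 (-0.53 ± 0.0652), under IFNγ in the A-498-labelled libraries, and 2, IRF7 (-1.34 ± 0.141) and IRF1 (-0.86 ± 0.0463), without it, where 5.75% and 5.60% of all genes were called lower. By the adjusted p alone 11 of the 14 were lower under IFNγ there, where 17.8% of all genes were. Without IFNγ 8 were lower and 1 higher by the adjusted p alone, where 18.1% and 12.8% of all genes were. None was called under IFNγ in the 786-0-labelled libraries, and SOCS1, an inhibitor of the JAK kinases, was higher without it (0.88 ± 0.162). JAK2 was not measured in the 786-0-labelled libraries. In the A-498-labelled ones its PD-L1si change under IFNγ was -0.22 ± 0.058, which did not pass the threshold.

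Sensors of foreign nucleic acid were mostly raised as well. With IFNγ 8 of 11 were higher in the A-498-labelled Cnsi cells, and 8 of the 10 measured were higher in the 786-0-labelled ones (18.2% and 11.1% of all genes). With PD-L1si under IFNγ 3 were called lower in the A-498-labelled libraries, RIGI (-0.67 ± 0.0463), IFIH1 (-0.54 ± 0.0439) and ZBP1 (-1.04 ± 0.312), and none in the 786-0-labelled ones (5.75% and 1.74% of all genes). By the adjusted p alone 7 were lower and 1 higher in the A-498-labelled libraries (17.8% and 16.2% of all genes). In the 786-0-labelled ones 2 were then higher and 0 lower (5.96% and 8.06% of all genes). Transcripts of the interferons themselves had few counts. IFNB1 had 0 counts in each A-498-labelled Cnsi library and 2 to 5 with IFNγ. IFNL1 had 0 to 1 counts in the 786-0-labelled Cnsi libraries and 5 to 10 with IFNγ. Both were called higher with IFNγ under either siRNA. They passed the count filter only through the IFNγ libraries, so these calls add nothing to the few counts given. IFNB1 in the 786-0-labelled and IFNL1 in the A-498-labelled libraries stayed under the count filter. Between the siRNA groups a change in either gene was not detectable at this depth. IFNE, the other interferon gene tested, had 0 to 7 counts in the A-498-labelled and 12 to 28 in the 786-0-labelled libraries and was not called for the siRNA.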

How the data were processed

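RNA was sequenced from 24 libraries. Per the labels and the study's methods, the authors trimmed reads with Trimmomatic 0.36.6, aligned them to GRCh38 with HISAT2 2.1.0 and counted them on GENCODE 33 genes with featureCounts 1.6.3, so that the deposited values are raw counts per gene. A stranded kit was used, and the strand setting stated for counting is not the one usual for that kit, so reads of overlapping genes may not be separated. Of 39321 genes, 39148 were matched by Ensembl ID to GENCODE 44. Groups were taken from the labels.

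Testing used edgeR 4.0.16 under R 4.3.3 (TMM, quasi-likelihood F-test, robust, 4 group means over the 12 libraries of a line, or 24 libraries for line differences). Genes with at least 10 counts summed over a group were tested, and a gene was called at a Benjamini-Hochberg adjusted p under 0.05 with a log2 fold change over 0.5. The study tested protein-coding genes only, which is an alternative here, as are DESeq2 1.42.0, other scalings, filters and thresholds, the replicate block and the omission of each library.

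The genes, lists and alternatives were chosen with earlier results of these data known. All 42 genes are named. Counts per library are given for the largest and smallest IFNγ change in each role list, genes not called or not measured in a line, and the 2 with the largest line difference in each direction; others were chosen after their values were seen. Replicates were distinct, with chi-square per degree of freedom of 1.63 to 24.3 over 24 pairs. The pipeline was tested on simulated data. Values of some single genes of the pathway lists are not reported here.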

Additional observations from a re-analysis of the deposited data

Results flagged for a closer look

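The IFNγ change in Cnsi cells differed between the lines for 28 of the 37 genes measured in both, by the test of the difference itself in the model of all 24 libraries. As log2 differences, 786-0-labelled minus A-498-labelled, the rise was smaller for IFI27 (-2.52), ISG20 (-2.47), OASL (-2.15), CMPK2 (-2.03), MX1 (-2.02), ISG15 (-2.02), RSAD2 (-2.00), IFIT2 (-1.93), IFI6 (-1.43), EPSTI1 (-1.35), SAMD9 (-1.09), OAS3 (-0.99), IFITM1 (-0.94), PLSCR1 (-0.93), UBE2L6 (-0.92), XAF1 (-0.92), IFIT3 (-0.89), NMI (-0.85), USP18 (-0.84), SLFN5 (-0.75), LAP3 (-0.73), HERC5 (-0.70), IFI44L (-0.63) and HELZ2 (-0.55). It was larger for SLFN11 (2.46), RTP4 (1.58), IFITM2 (0.92) and BST2 (0.90). Line and sequencing instrument cannot be told apart in these values.

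The change with PD-L1si under IFNγ differed between the lines for 14 genes, all more negative in the A-498-labelled libraries. The log2 differences were RSAD2 (1.19), MX2 (0.91), MX1 (0.85), IFI27 (0.85), ISG20 (0.83), IFIT2 (0.76), OAS3 (0.75), OASL (0.73), ISG15 (0.67), USP18 (0.60), IFI6 (0.60), IFIT1 (0.59), HELZ2 (0.56) and IFIT3 (0.53). HELZ2 missed the threshold in this comparison without the 786-0-labelled Cnsi IFNγ replicate 1, and IFIT3 without the A-498-labelled PD-L1si IFNγ replicate 1. In PD-L1si cells the IFNγ rise was smaller in the 786-0-labelled libraries for 28 genes, the PD-L1si change without IFNγ differed for 25, and the siRNA by IFNγ interaction for 9.

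Within the A-498-labelled libraries the IFNγ effect differed between PD-L1si and Cnsi cells for OAS2 (1.91), MX2 (1.58), EPSTI1 (1.42), XAF1 (1.29), OAS1 (1.12), RTP4 (0.82), SAMD9L (0.80) and MX1 (0.58). Within the 786-0-labelled libraries it differed for IFI6 (-0.52). Groups of 3 libraries are too small for a test of single outlying samples, and none was made.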

How the results depend on the processing

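The counts of genes raised by IFNγ were within 1.5 times of the reported ones under every alternative run, and no gene changed direction past the threshold. The fold threshold mattered most. With the adjusted p alone, 35 genes were lower with PD-L1si under IFNγ in the A-498-labelled libraries in place of 19, 19 had a positive interaction in place of 8, and 26 differed between the lines under IFNγ in place of 14, where 17.8%, 6.34% and 8.86% of all genes passed in these directions. In the 786-0-labelled libraries 3 were then lower under IFNγ (8.06% of all genes), and without it 7 were higher and 3 lower (4.79% and 8.04%). With a log2 change over 1 the A-498-labelled libraries kept 2 lower under IFNγ (1.6% of all genes) and 14 without it (1.78%). They kept 5 positive interactions (0.402%). The 786-0-labelled ones kept 0 higher without IFNγ (0.377%) and 0 interactions (0%). Between the lines that threshold left 2 higher and 11 lower for IFNγ in Cnsi (6.71% and 5.21% of all genes). It left 1 higher for IFNγ in PD-L1si (5.36%), 1 higher for PD-L1si under IFNγ (0.844%) and 2 lower for the interaction (0.289%). The 786-0-labelled interaction of IFI6 gave 0 calls with RLE scaling, filterByExpr and the newer fit. The count higher with PD-L1si without IFNγ there was 0 with no filter and 2 with protein-coding genes only and with the newer fit. The causes were not tested.

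Leaving out each library in turn gave 0 to 2 genes higher with PD-L1si without IFNγ and 0 to 1 lower for the interaction in the 786-0-labelled libraries (the interaction call stayed only without the Cnsi replicate 3). In the A-498-labelled libraries it gave 25 to 31 lower without IFNγ, 16 to 19 under it and 6 to 9 positive interactions. The median interaction ran from 0.26 to 0.35 there, the median PD-L1si change under IFNγ from -0.49 to -0.42, and the median IFNγ change in the 786-0-labelled PD-L1si cells from 2.35 to 2.46. TMM factors computed without the 42 genes, an alternative chosen after seeing the data, gave 19 and 30 again.

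The replicate numbers were not shown to pair the libraries, since deviations of same-numbered libraries correlated by -0.107 to 0.252 (A-498-labelled) and -0.262 to 0.298 (786-0-labelled). With the replicate number as a block the interaction count in the 786-0-labelled libraries was 0 and the line difference of the interaction 8. The block left the counts of the siRNA comparisons at 19 and 30 in the A-498-labelled libraries. Low counts limit MX2, RTP4 and SLFN11 in the 786-0-labelled libraries without IFNγ. There no difference between siRNA groups was called for MX2 or RTP4, and SLFN11 was called higher with protein-coding genes only, with the newer fit and without Cnsi IFNγ replicate 1 or 3.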
